A study of Rattus norvegicus with 12 samples.

Results

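Macrophages exposed to the culture supernatant of pancreatic ductal adenocarcinoma cells take on features of tumour-associated macrophages (TAMs), and here rat Schwann cells were grown together with TAMs induced by either of 2 human pancreatic cancer lines, MIA PaCa-2 or BxPC-3. The comparison is that of the 3 libraries of Schwann cells with MIA PaCa-2-induced TAMs (MiaTAM) against the 3 libraries of Schwann cells with BxPC-3-induced TAMs (BxTAM), which are 6 of the 12 libraries of the series. Both groups carry the same exposure to TAMs, so that the 2 differ, per the labels, in the cancer line that induced the macrophages. The other 6 libraries, 3 of untreated Schwann cells alone and 3 of Schwann cells grown with monocyte-derived macrophages (MDM), serve as levels to set beside the 2 TAM groups. The titles of the cells alone read Rsc96 and their short descriptions HSC96, and the MDM libraries are titled PBMC with MDM co-culture as their source. No genotype, animal age, culture time, cell ratio or macrophage species is given in the sources used here, nor whether the cells shared a dish or were separated by a membrane. Every library is labelled as rat. Nothing says that the replicates came from separate cultures, so p-values measure the spread between these libraries, which may be technical.

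Of 30957 genes in the deposited count table, 12360 passed the filter on low counts and are the genes compared. Throughout, a change is that of MiaTAM relative to BxTAM. Levels are CPM, counts scaled to a common library total, in the 3 libraries of a group in the order of their replicate numbers, and group values are means ± SD (n = 3 libraries). A log2 change is given ± its standard error, and "rose", "fell" and "called" mean an adjusted p under 0.05 in the quasi-likelihood test of edgeR, with p values adjusted by Benjamini-Hochberg over all 12360 genes. Totals ran from 16555215 to 19043650 counts in the 6 TAM libraries.

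Schwann cells are the glia of peripheral nerves. After injury they leave their myelinating or resting state, secrete cytokines and trophic factors and remodel the matrix around axons, and pancreatic cancers are known for growing along nerves, where Schwann cells and macrophages meet the tumour. Glial markers were uneven at the RNA level in both groups. Of 21 Schwann lineage and glial genes found in the table, 14 passed the filter, and Cadm4, Erbb3 and Dhh are among those given below. Others were nearly absent. Sox10, the transcription factor that specifies the Schwann lineage, had 1 count in 1 of the 12 libraries. S100b, a calcium-binding protein used as a Schwann marker, had 8, 5 and 1 counts in the BxTAM libraries and 4, 3 and 2 in the MiaTAM libraries. Vim, the intermediate filament vimentin, was abundant, at 1688 ± 50.6 CPM in BxTAM and 1645 ± 78.9 CPM in MiaTAM.

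The 2 TAM co-cultures differed in many genes by small amounts. Of the 12360 genes, 2997 were called (24.2%), 1356 of them higher in MiaTAM (11.0%) and 1641 lower (13.3%). The libraries of the groups did not overlap for 4770 genes (38.6%), with MiaTAM above in 2299 (18.6%) and BxTAM above in 2471 (20%). Among the called genes, 1737 differed by less than 1.2-fold, 1096 by 1.2- to 1.5-fold and 131 by 1.5- to 2-fold. There were 33 genes past 2-fold (0.267%), 28 higher (0.227%) and 5 lower (0.0405%), and 9 of the 33 averaged under 1 CPM in their higher group. The median called gene differed by 0.241 on the log2 scale, or 1.182-fold. At 1.5-fold or more, 109 genes were higher in MiaTAM and 55 lower. For scale, BxTAM against MDM co-culture gave 4291 called genes (34.7%) and BxTAM against cells alone 7524 (60.9%). MiaTAM gave 5062 (41.0%) against the same MDM libraries and 8041 (65.1%) against the same cells alone, so that these 4 contrasts share their control libraries. The first principal component of the 6 libraries, which held 39.7% of their variance, separated the groups, with BxTAM libraries at -8.58, -14.7 and -13.9 and MiaTAM libraries at 6.02, 18.4 and 12.8. Leaving out MiaTAM replicate 2, BxTAM replicate 2 or BxTAM replicate 3 lowered the number of called genes to 1933, 1978 and 1976. Leaving out MiaTAM replicate 1 or BxTAM replicate 1 raised the number past 2-fold to 50 and 51. The test against a fold of 1.2 instead of no change called 80 genes, 31 higher and 49 lower. A gene named below kept its call in those of the other 16 alternatives that gave it an adjusted p, unless the text says otherwise, and numbers of alternatives in which a gene lost its call leave that test out.

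**Figure D1:**
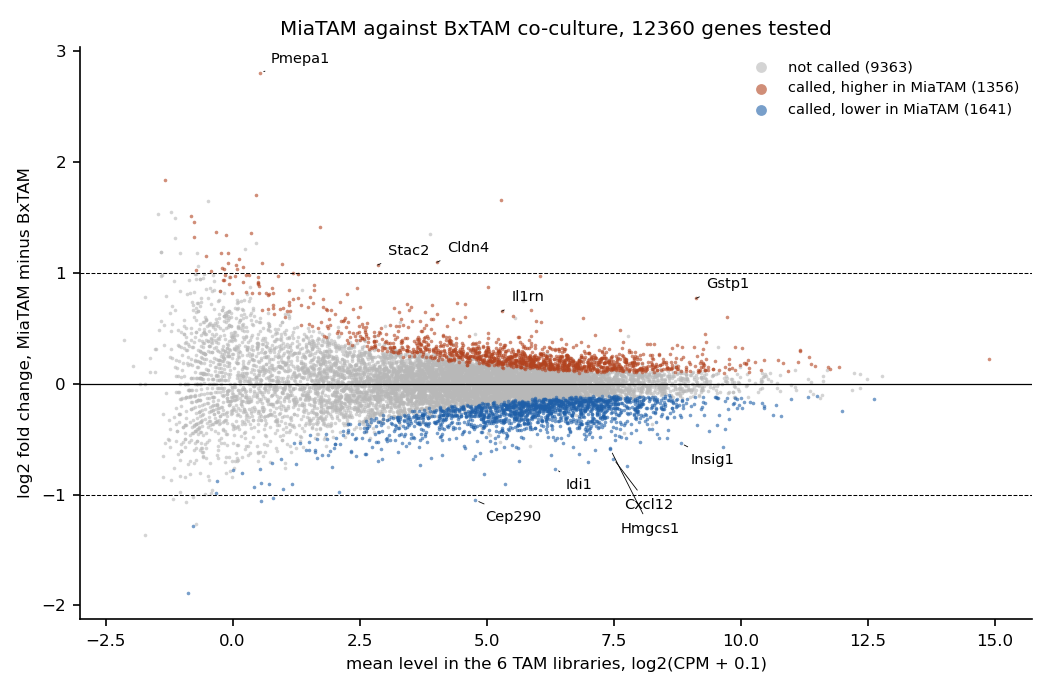
Each point is a gene, with the mean level in the 6 TAM libraries on the x axis, as log2(CPM + 0.1), and the log2 change, MiaTAM minus BxTAM, on the y axis. Red points are the 1356 genes called higher in MiaTAM, blue points the 1641 called lower and grey points the rest, and the dashed lines mark 2-fold. At high levels the called genes lie inside the dashed lines.

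Gene length moved with the direction of change. The median length implied by the deposited count and FPKM values was 2188 bases for genes called higher, 3361 bases for genes called lower and 2375 bases for genes not called. In the shortest of 8 equal bins 12.6% of genes were called higher and 3.75% lower, and in the longest bin 7.18% were higher and 24.5% lower. For this reason the count of each gene list below is also given after a length offset, an alternative added after seeing the data in which each library's own trend with length was removed. With it 1520 genes were called higher and 1459 lower. The counts and medians of the lists stand beside those of all 12360 genes, of which 11.0% rose and 13.3% fell, with a median change of 0.00185. List counts of 1 or 2 genes often moved by 1 or 2 when a single library was left out, and only larger moves are given.

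**Figure D2:**
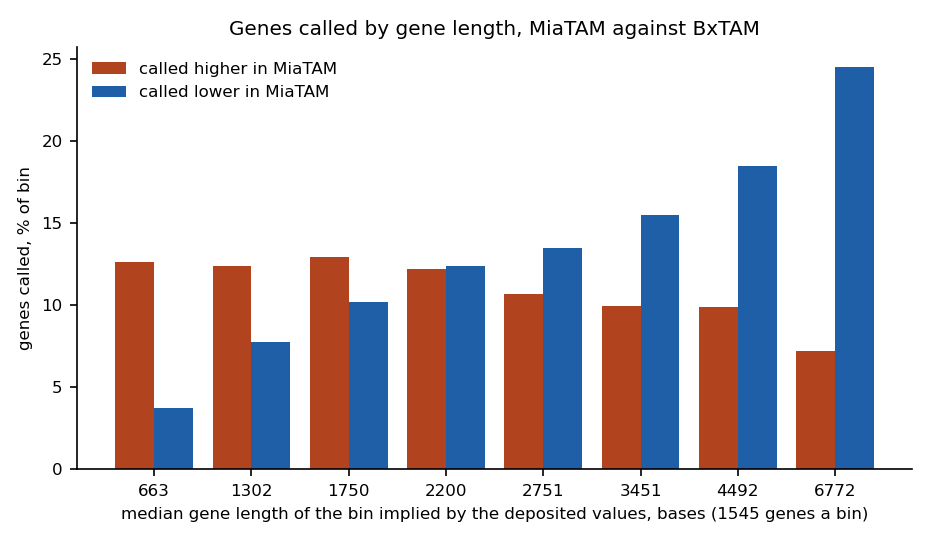
Bars give the share of genes called higher (red) and lower (blue) in MiaTAM, as a percentage of the 1545 genes in each of 8 bins of gene length, which are ordered along the x axis by their median length in bases. The share called lower grows from 3.75% in the shortest bin to 24.5% in the longest.

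Most of the tested genes of sterol synthesis fell with MiaTAM. Cells make cholesterol from acetyl-CoA through the mevalonate pathway. When membrane sterol is low, SREBP-2, the product of Srebf2, moves to the nucleus and switches on the enzymes of the pathway, and the INSIG proteins hold SREBP back when sterol is plentiful. Of 25 tested genes of sterol synthesis and uptake 15 fell, 1 rose and 9 were not called, with a median change of -0.20. After the length offset 12 fell and 1 rose, with a median of -0.14, and leaving out single libraries gave 12 to 15 that fell.

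Promoters of 3 of the genes that fell are shown because they carry the CCAAT box, a motif bound by NF-Y, a factor that is known to work together with SREBP at sterol genes. The windows run from 250 bases before to 50 bases after the gene's start, from RefSeq on the build GRCr8, 5′ to 3′ along the gene's strand, with CCAAT, or ATTGG where the box lies on the other strand, in capitals.
Hmgcs1, chr2:53382054-53382353, plus strand: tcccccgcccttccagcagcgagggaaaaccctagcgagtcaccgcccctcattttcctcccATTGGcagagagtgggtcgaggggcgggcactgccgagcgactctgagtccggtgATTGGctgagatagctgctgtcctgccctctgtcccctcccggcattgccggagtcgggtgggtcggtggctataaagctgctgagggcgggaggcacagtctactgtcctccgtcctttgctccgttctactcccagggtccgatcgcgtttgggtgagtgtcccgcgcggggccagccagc
Idi1, chr17:66547475-66547774, minus strand: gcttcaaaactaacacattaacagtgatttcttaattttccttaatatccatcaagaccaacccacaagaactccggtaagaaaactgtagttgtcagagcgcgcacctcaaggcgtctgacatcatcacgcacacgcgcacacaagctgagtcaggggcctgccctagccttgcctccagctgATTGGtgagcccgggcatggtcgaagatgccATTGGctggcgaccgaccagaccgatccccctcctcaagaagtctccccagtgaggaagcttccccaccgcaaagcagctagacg
Insig1, chr4:8057720-8058019, minus strand: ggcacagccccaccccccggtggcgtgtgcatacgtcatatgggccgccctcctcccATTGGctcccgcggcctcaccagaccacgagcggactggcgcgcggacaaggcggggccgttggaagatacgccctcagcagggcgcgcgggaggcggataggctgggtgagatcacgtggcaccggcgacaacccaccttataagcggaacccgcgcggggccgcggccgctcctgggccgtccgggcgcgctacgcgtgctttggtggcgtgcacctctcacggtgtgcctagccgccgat
CCAAT was found on either strand in 15 of the 18 tested list members with a single promoter in the table (83.3%). Over all 24206 promoters, which include those of genes not tested here, the share was 37.8%. It was not computed over the tested genes alone. Of the 11 members that fell and had a promoter, 9 held the box (81.8%), a share close to that of the whole list. The sterol regulatory element TCACNCCAC was found in 0 of these 18 windows and in 1.12% of all promoters. A pattern this rare cannot show, in so few windows, whether these genes hold such an element. These are letter matches in a window and not measured binding sites.

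Enzymes at several steps of the pathway fell. Hmgcs1, the HMG-CoA synthase at the entry of the pathway, measured 203, 211 and 209.5 CPM in the BxTAM libraries and 142, 130.4 and 140.3 CPM in the MiaTAM libraries. All 3 MiaTAM libraries lay below all 3 BxTAM libraries, a change of -0.59 ± 0.04 (adjusted p = 3.9e-08). The MDM co-cultures stood at 149 ± 8.42 CPM and the cells alone at 128 ± 1.28 CPM. Idi1, which isomerizes the isoprenoid building block, fell further, from 97.7, 102 and 107 CPM to 66.1, 51.6 and 62.6 CPM, a change of -0.76 ± 0.07 (adjusted p = 3.4e-07), and the MDM level was 68.9 ± 1.04 CPM. Sqle, the squalene epoxidase of the first oxygen-dependent step, measured 142, 143 and 142 CPM against 108, 108 and 104 CPM, a change of -0.41 ± 0.04. Cyp51, a demethylase of lanosterol, fell by 0.37 on the log2 scale, and Acat2, which makes acetoacetyl-CoA, by 0.62.

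Insig1, itself a target of SREBP, measured 535, 519.9 and 540.2 CPM in BxTAM and 380.2, 352 and 368 CPM in MiaTAM, a change of -0.53 ± 0.04 (adjusted p = 1.5e-07). Its MDM level, 472 ± 15 CPM, lay between the 2 TAM groups, and cells alone were at 233 ± 13.7 CPM. Stard4, a carrier of cholesterol in the cytosol, fell by 0.32. Srebf2 changed by -0.12 ± 0.04 and lost its call in 10 alternatives.

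**Figure D3:**
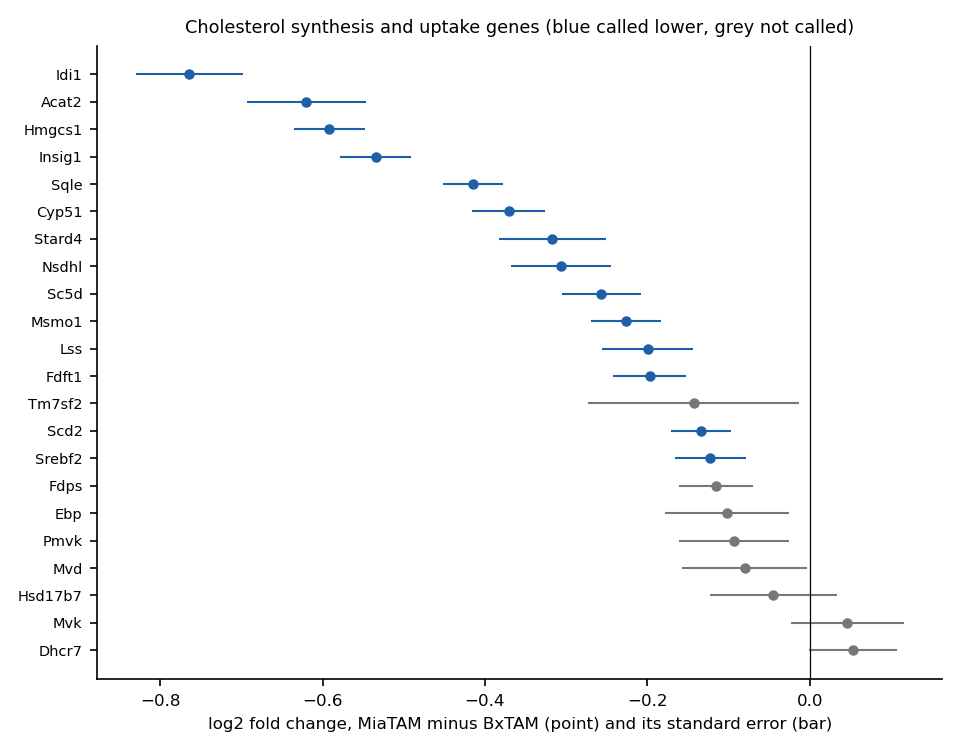
Each row is 1 of 22 of the 25 tested genes of sterol synthesis and uptake, with the log2 change, MiaTAM minus BxTAM, on the x axis and its standard error as a bar. The 14 blue genes were called lower and lie between -0.76 (Idi1) and -0.12 (Srebf2), and the 8 grey genes were not called. The 1 gene of the list that rose is not plotted.

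Among other lipid genes more rose than fell. Of 30 tested genes of fatty acid metabolism and of the sterol-sensing LXR receptors, 6 rose and 2 fell, with a median of 0.02 (8 and 0 after the length offset). The share called, 26.7%, was near the 24.2% of all genes tested. The count that rose was 3 without BxTAM replicate 2 or BxTAM replicate 3. Lpcat3, an LXR target that puts polyunsaturated acyl chains on phospholipids, rose from 408 ± 22.1 to 512 ± 7.94 CPM, a change of 0.33 ± 0.05 (adjusted p = 1.0e-04). Abcg1, an LXR target that exports cholesterol, rose by 0.20, and Angptl4, a secreted inhibitor of lipoprotein lipase, rose by 0.32. Abca1, another LXR target and cholesterol exporter, did not pass, at 31.1 ± 2.4 against 28.2 ± 1.96 CPM (adjusted p = 0.163).

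More chemokines fell than rose with MiaTAM, and Cxcl12 had the largest fall among them. Chemokines are small secreted proteins that draw leukocytes and, in the case of CXCL12 and its receptor CXCR4, also tumour cells. Cxcl12 measured 216, 226 and 220.2 CPM in the BxTAM libraries and 139, 140.5 and 135 CPM in the MiaTAM libraries, a change of -0.68 ± 0.04 or 1.6-fold (adjusted p = 1.2e-09). The groups were far apart compared with the spread of their libraries. Cells alone had 234 ± 1.35 CPM, close to the BxTAM level, and MDM co-cultures 79.1 ± 3.63 CPM, so the MiaTAM level lay between that of MDM and BxTAM. Of 10 tested chemokines 5 fell, 1 rose and 4 were not called, with a median of -0.23 (5 and 1 after the length offset, and 3 that fell without MiaTAM replicate 2). Cxcl10, an interferon-induced ligand of CXCR3, measured 22.6, 22.4 and 22.5 against 19.1, 19.1 and 18.5 CPM, a change of -0.25 ± 0.06, and both TAM groups were below the MDM level of 37.7 ± 0.524 CPM. Cxcl16, a membrane-anchored ligand of CXCR6, fell by 0.24. Cxcl6, a neutrophil attractant, fell by 0.61 and was not called without MiaTAM replicate 2. Cxcl1, another, fell by 0.15 and lost its call in 10 alternatives. Cx3cl1, the membrane-bound chemokine fractalkine that myeloid cells recognize, was the 1 chemokine that rose, from 14.1, 15.3 and 15.6 to 17.7, 21.3 and 18.2 CPM, a change of 0.35 ± 0.08. Ccl2, the main monocyte attractant of the list, was at 73.7 ± 2.12 and 80.2 ± 6.02 CPM and was not called (adjusted p = 0.26).

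**Figure D4:**
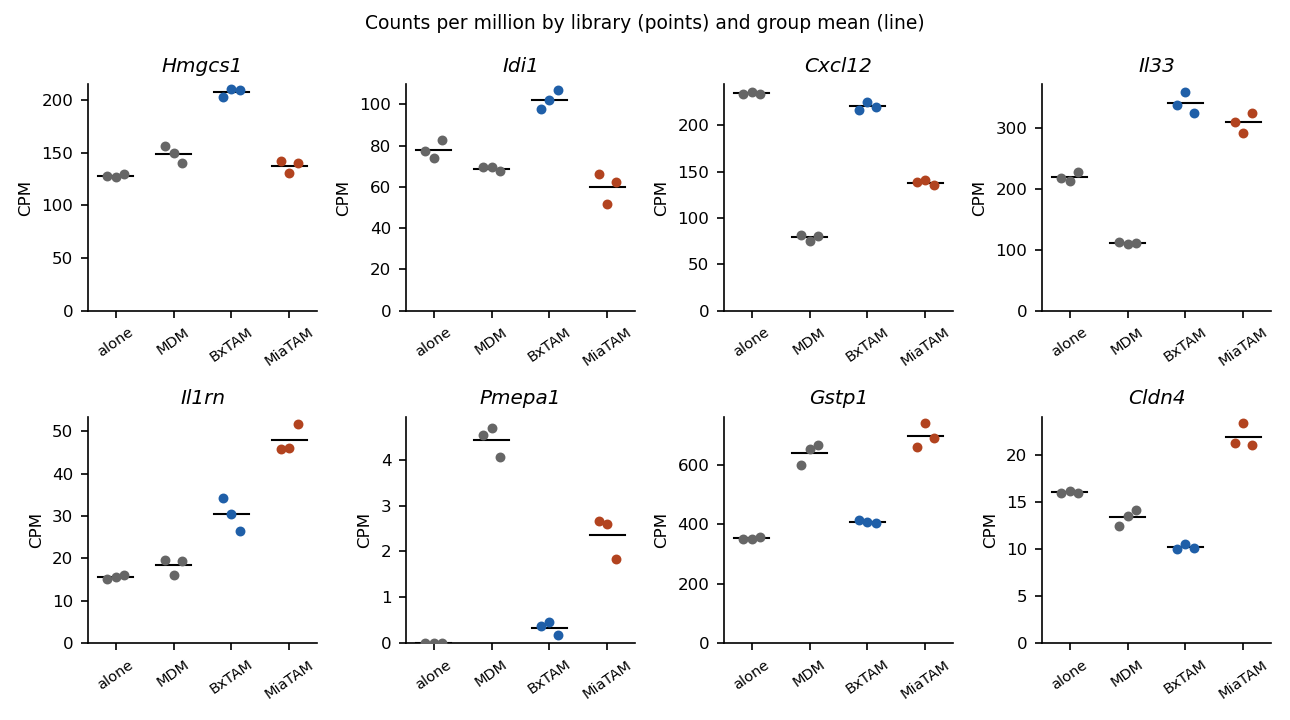
Points are the CPM of single libraries and lines the group means for 8 genes in cells alone, MDM, BxTAM and MiaTAM co-cultures, with axes that start at 0. Hmgcs1, Idi1 and Cxcl12 are lower in MiaTAM than in BxTAM, Il1rn, Pmepa1, Gstp1 and Cldn4 are higher, and the Il33 libraries of the 2 TAM groups meet at their edges.

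Il33, an alarmin of the IL-1 family that signals through Il1rl1 and Il1rap, measured 338, 359 and 325 CPM in BxTAM and 311, 292 and 325 CPM in MiaTAM. The lowest BxTAM library and the highest MiaTAM library coincide, and the change was -0.14 ± 0.04 (adjusted p = 0.0286). It was not called with upper-quartile scaling or without MiaTAM replicate 2, BxTAM replicate 1 or BxTAM replicate 2, with adjusted p values of 0.0528, 0.136, 0.0562 and 0.167, in a range from 0.0151 to 0.167 over the 16 alternatives. Both TAM groups were above cells alone, at 219.6 ± 7.6 CPM, and above MDM co-cultures, at 111 ± 1.99 CPM. Il1rap, the co-receptor shared by IL-33 and IL-1, fell from 112, 119.98 and 113 to 90.2, 79.9 and 85 CPM, a change of -0.43 ± 0.05 (adjusted p = 1.3e-05). Il1rn, the secreted antagonist of the IL-1 receptor, moved the other way, from 34.1, 30.5 and 26.5 to 45.9, 46 and 51.6 CPM. Its change of 0.65 ± 0.08 (adjusted p = 2.5e-05) left it 1.57-fold higher with MiaTAM, and the MDM level was 18.4 ± 1.97 CPM. The other 4 tested members of this list were not called, and the length offset gave the same counts of 1 that rose and 2 that fell. The list does not hold every relative of IL-1, and Il36g, which fell, is described further below.

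Among colony-stimulating factors and the IL-6 family, 2 of 14 tested genes rose, 2 fell and 10 were not called, with a median of 0.05. The length offset gave 5 that rose and 2 that fell, and 4 rose with upper-quartile factors or without MiaTAM replicate 1. Csf3, the granulocyte colony-stimulating factor, measured 132, 126 and 119.7 CPM with BxTAM and 114, 107 and 93.7 CPM with MiaTAM, a change of -0.26 ± 0.06 (adjusted p = 0.00532), and both were above the MDM level of 47.7 ± 4.4 CPM. Clcf1, a ligand of the ciliary neurotrophic factor receptor, fell from 11.4, 14.6 and 15.1 to 9.49, 10.4 and 9.27 CPM. Socs3, the feedback inhibitor that STAT3 induces, rose by 0.20. Lif rose by 0.24, with libraries that overlapped, and was not called in 5 alternatives. Of 18 tested NF-kappaB subunits, feedback inhibitors and targets, 2 rose, 1 fell and 15 were not called, with a median of 0.03 (2 and 1 after the length offset). Nfkbib, which encodes the inhibitor I-kappa-B beta, rose by 0.31. Bcl3, a nuclear co-factor of NF-kappaB, rose by 0.22 and was not called without BxTAM replicate 3. Tnfaip3, the inhibitor A20, fell by 0.22 and lost its call in 5 alternatives. Nfkbia itself, the classical feedback inhibitor, was at 70.4 ± 5.52 and 69.1 ± 2.52 CPM (adjusted p = 0.77).

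Among interferon-induced genes, too, more fell than rose. Type I interferons act through STAT proteins and IRF9 to induce a set of antiviral genes. Of 32 tested members 10 fell, 1 rose and 21 were not called, with a median of -0.16. The length offset gave 10 that fell and 2 that rose, and leaving out single libraries gave 9 to 11 that fell. Parp14, an ADP-ribosyltransferase, measured 108, 117 and 102 against 84.6, 83.7 and 87.5 CPM (-0.35 ± 0.05, adjusted p = 3.9e-05). Its relative Parp9 measured 44.5, 44.2 and 41.4 against 33.5, 33.2 and 29.7 CPM (-0.43 ± 0.07), and Dtx3l, the ubiquitin ligase that pairs with PARP9, fell by 0.38. Gbp2, an interferon-induced GTPase, fell by 0.35, Ifih1, the RNA sensor MDA5, by 0.32, Ifit2 by 0.48 and Rsad2, the antiviral enzyme viperin, by 0.41. The 1 that rose was Oasl, at 0.26 ± 0.06. Irf1, a transcription factor that interferons induce, was not called, at 68.3 ± 3.04 and 66.1 ± 2.2 CPM (adjusted p = 0.516).

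Antigen presentation by class I molecules loads peptides cut by the proteasome and trimmed in the endoplasmic reticulum. Of 17 tested genes 5 fell, 1 rose and 11 were not called, with a median of -0.16 (5 and 1 after the length offset). The count that fell was 2 without MiaTAM replicate 3 and 3 without BxTAM replicate 1. Erap1, the peptide-trimming aminopeptidase, fell from 95, 100.02 and 98.9 to 76, 66 and 67.1 CPM, a change of -0.49 ± 0.05 (adjusted p = 4.4e-06). Psmb8, a subunit of the immunoproteasome, fell from 38.2, 39.5 and 36.9 to 29.8, 31.6 and 29.2 CPM. B2m, the invariant chain of class I molecules, fell by 0.19 and was not called without MiaTAM replicate 3. Tap1, a subunit of the peptide transporter, was not called, at 88.7 ± 2.23 and 81.8 ± 2.94 CPM (adjusted p = 0.087).

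Pmepa1 rose within a list of TGF-beta genes whose median change was near 0. TGF-beta binds its receptors, SMAD proteins enter the nucleus, and among the genes they induce is Pmepa1, which encodes a membrane protein that binds SMADs and restrains the pathway. Of 21 tested ligands, receptors and targets 4 rose, 3 fell and 14 were not called, with a median of 0.02 (4 and 3 after the length offset).

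Pmepa1 had the largest change of the genes that met the rule for naming, although it rested on few counts. It had 7, 8 and 3 counts in the BxTAM libraries and 51, 43 and 34 counts in the MiaTAM libraries, or 0.376, 0.46 and 0.165 and 2.66, 2.59 and 1.84 CPM. The change was 2.81 ± 0.31, 6.99-fold (adjusted p = 1.0e-05). MDM co-cultures were higher than either, at 4.44 ± 0.341 CPM, and the 3 libraries of cells alone had 0 counts. Its promoter is shown because SMAD proteins bind the short motif CAGAC and its reverse GTCTG, which are in capitals.
Pmepa1, chr3:182478600-182478899, minus strand, GRCr8: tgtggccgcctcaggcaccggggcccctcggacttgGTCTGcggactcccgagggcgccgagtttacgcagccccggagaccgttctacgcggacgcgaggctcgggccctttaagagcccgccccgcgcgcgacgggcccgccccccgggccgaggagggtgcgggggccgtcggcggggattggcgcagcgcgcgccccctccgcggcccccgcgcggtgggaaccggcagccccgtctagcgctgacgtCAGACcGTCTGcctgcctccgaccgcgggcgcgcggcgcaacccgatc
The motif occurs 3 times in this window, and 49.8% of all promoters of the table hold it at least once. The longer palindrome GTCTAGAC is not in the window and is in 0.219% of all promoters.

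Tgfb1, the ligand, rose from 102, 96.2 and 103 to 124, 142 and 126 CPM, a change of 0.38 ± 0.05 (adjusted p = 3.4e-05). Ltbp1, which tethers latent TGF-beta to the matrix, fell by 0.17, and Tgfbr3, the co-receptor betaglycan, by 0.18. Ctgf, another target of the pathway, was not called, at 7.11 ± 0.36 and 7.33 ± 0.781 CPM (adjusted p = 0.815).

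Matrix genes changed in both directions. Of 26 collagen, laminin and basement membrane genes 6 rose and 6 fell, with a median of -0.04 (7 and 5 after the length offset). Lamb3, a chain of the laminin of epithelial basement membranes, rose from 49.5, 43.7 and 41.8 to 68.8, 72.4 and 72.6 CPM, a change of 0.66 ± 0.06 (adjusted p = 9.5e-07), and the MDM level was 73.2 ± 2.67 CPM. Col1a1, a chain of type I collagen, rose from 53.4, 51.3 and 47.3 to 73.7, 82.1 and 69.1 CPM, a change of 0.56 ± 0.06. Col18a1, the source of endostatin, rose by 0.32, while Col8a1 fell by 0.35 and Col5a2 by 0.30. Among matricellular proteins and proteoglycans 3 of 18 rose and 3 fell, with a median of -0.02 (3 and 2 after the length offset). Gpc1, a cell-surface heparan sulfate proteoglycan that pancreatic tumours also express, rose from 8.64, 6.73 and 6.81 to 11.6, 11.9 and 11.4 CPM. Sdc1, the proteoglycan syndecan-1, rose from 538, 539.6 and 515 to 683, 739 and 753 CPM, a change of 0.45 ± 0.04. Sulf1, which removes sulfate from heparan sulfate chains, fell from 115, 109.8 and 111 to 84.9, 84.1 and 84 CPM, a change of -0.41 ± 0.05, and Tnc, the repair-associated protein tenascin-C, fell by 0.29.

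The plasminogen system and its neighbours moved in parts. Of 25 tested matrix proteases and inhibitors 6 rose and 5 fell, with a median of -0.00 (6 and 4 after the length offset, and 3 that fell without MiaTAM replicate 2 or BxTAM replicate 3). Timp1, an inhibitor of matrix metalloproteinases, rose from 545, 563 and 544 to 777, 717 and 655 CPM, a change of 0.38 ± 0.05 (adjusted p = 4.4e-05). Mmp10, or stromelysin-2, rose from 19.9, 20.1 and 16.8 to 30.3, 27.2 and 28.6 CPM, while Mmp13, a collagenase, fell by 0.28 and Adamts1, which cleaves proteoglycans, by 0.30. Plat, the tissue plasminogen activator, rose by 0.35 and Plaur, the urokinase receptor, by 0.21, whereas Plau, urokinase itself, fell by 0.17.

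Cldn4 stood apart among 22 tested integrins, cadherins and junction genes, of which 4 rose and 2 fell, with a median of 0.06 (5 and 2 after the length offset). Claudin-4 is a tight junction protein of epithelia and is known as abundant in pancreatic cancer. It measured 10.03, 10.5 and 10.2 CPM in BxTAM and 21.3, 23.4 and 21.1 CPM in MiaTAM, a change of 1.10 ± 0.08 or 2.14-fold (adjusted p = 1.7e-08). Untreated cells alone had 16.1 ± 0.0827 CPM, a level between the 2 TAM groups, and MDM co-cultures had 13.4 ± 0.857 CPM. Of 15 epithelial markers, Cldn4 was the 1 called among 6 tested, also after the length offset. Epcam, Krt19, Krt5 and Cldn7 had 0 counts in all 6 TAM libraries, and the summed level of the 15 genes was 30.9 to 34.7 CPM in BxTAM and 45.4 to 48 CPM in MiaTAM. Tjp1, a scaffold of tight junctions, fell by 0.22, Itgav, the alpha chain of vitronectin receptors, fell by 0.16, and its partner Itgb5 rose by 0.17.

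Antioxidant genes that were called were higher with MiaTAM in all but 1 case. The factor NRF2, the product of Nfe2l2, binds antioxidant response elements in genes of glutathione, thioredoxin and NADPH metabolism. Of 30 tested genes of this kind 11 rose, 1 fell and 18 were not called, with a median of 0.09. The length offset gave the same counts of 11 and 1, and leaving out single libraries gave 8 to 11 that rose. Gstp1, the pi-class glutathione transferase, measured 416, 409 and 404 CPM in BxTAM and 661, 744 and 692 CPM in MiaTAM, a change of 0.77 ± 0.05 or 1.71-fold (adjusted p = 1.2e-09). Cells alone had 353 ± 4.9 CPM and MDM co-cultures 641 ± 36.1 CPM, which is nearer to MiaTAM. Its promoter is shown because it holds 1 match to the core of the antioxidant response element, TGACNNNGC, in capitals.
Gstp1, chr1:210769656-210769955, minus strand, GRCr8: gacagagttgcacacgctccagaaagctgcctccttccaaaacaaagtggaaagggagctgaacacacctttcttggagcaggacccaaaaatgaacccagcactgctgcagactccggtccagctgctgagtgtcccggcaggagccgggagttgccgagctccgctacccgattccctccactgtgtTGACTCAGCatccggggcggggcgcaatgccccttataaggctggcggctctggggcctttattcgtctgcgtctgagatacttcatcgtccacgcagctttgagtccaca
The same core was found on either strand in 7 of the 22 tested list members with a single promoter in the table (31.8%). It was in 12.2% of all promoters, which include those of genes not tested here. Of the 5 genes that rose and had a promoter, 2 held it.

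Taldo1, which encodes transaldolase of the pentose phosphate pathway, rose from 161, 159 and 164 to 187, 195 and 192 CPM, a change of 0.25 ± 0.04 (adjusted p = 3.6e-04). Gpx4, the peroxidase that removes lipid hydroperoxides, rose from 131, 125 and 126 to 143, 165 and 147 CPM, and Nqo1, a quinone reductase, rose by 0.29. Txnrd1, the thioredoxin reductase, rose by 0.20, and Ftl1, the ferritin light chain, by 0.22. The 1 gene that fell was Nfe2l2, from 225, 228 and 224 to 186, 161 and 179 CPM, a change of -0.36 ± 0.04 (adjusted p = 1.6e-05). Hmox1, the heme oxygenase that NRF2 induces, and Slc7a11, the cystine importer, were not called, with adjusted p values of 0.398 and 0.0872.

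Called genes of the respiratory chain were all higher, each by a little. Of 32 tested nuclear genes of oxidative phosphorylation 17 rose and 0 fell, with a median of 0.14. Their median implied length was 1063 bases, and the length offset left 12 that rose and 0 that fell, with a median of 0.11. The count that rose was 11 without MiaTAM replicate 2 and 10 without BxTAM replicate 3. Cox6a1 of complex IV measured 173, 164 and 158 against 215, 253 and 225 CPM, a change of 0.49 ± 0.06 (adjusted p = 2.5e-05). Cox5a, also of complex IV, measured 38, 34.5 and 34.3 against 43.4, 49.1 and 43.6 CPM, Ndufb8 of complex I rose by 0.33, and Uqcrc1 of complex III by 0.24. Of 11 tested genes of the mitochondrial chromosome 5 rose and 0 fell (3 and 0 after the length offset). Between 2 and 6 rose when single libraries were left out, with 2 without MiaTAM replicate 3, BxTAM replicate 2 or BxTAM replicate 3 and 3 without MiaTAM replicate 2 or BxTAM replicate 1. Mt-nd1 of complex I rose from 2101, 2056 and 2056 to 2386, 2605 and 2626 CPM, a change of 0.29 ± 0.04. The mitochondrial chromosome took 5.86% to 5.94% of counts in the BxTAM libraries and 6.15%, 6.62% and 6.95% in the MiaTAM libraries, and the part of this share in the result was not tested.

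Called proteasome subunits were higher more often than lower. Of 31 tested subunits 11 rose, 2 fell and 18 were not called, with a median of 0.10 (9 and 3 after the length offset). The count that rose was 6 without BxTAM replicate 2 and 7 without BxTAM replicate 3. Psmb3 of the catalytic core rose from 83.4, 79.3 and 84.7 to 105, 101 and 98.2 CPM, a change of 0.30 ± 0.05 (adjusted p = 1.4e-04), Psmb7, a catalytic subunit, rose by 0.29, and Psmd2, of the regulatory particle, by 0.20. Psmc6, an ATPase of the base, fell by 0.22. The other subunit of this list that fell, Psmd6, lost its call in 12 alternatives. Psmb8 of the immunoproteasome, described above with antigen presentation, also fell and is not counted in this list. Of 32 tested ribosomal protein genes 7 rose and 2 fell (6 and 3 after the length offset), with a median of 0.06, but 1 rose without MiaTAM replicate 2, BxTAM replicate 2 or BxTAM replicate 3 and 4 without MiaTAM replicate 3.

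Among chaperones and stress genes of the endoplasmic reticulum more fell than rose with MiaTAM. Misfolded protein in this compartment activates ATF6, IRE1 and PERK. The first 2 raise chaperones, and the third stops translation and raises ATF4, which induces amino acid genes and Ddit3, the factor CHOP. Of 25 tested chaperone, folding and degradation genes 10 fell, 4 rose and 11 were not called, with a median of -0.08 (9 and 4 after the length offset, and 8 to 10 that fell when single libraries were left out). The count that rose was 2 without MiaTAM replicate 3, BxTAM replicate 2 or BxTAM replicate 3. Hspa5, the chaperone BiP, measured 1933, 1855 and 2034 CPM in BxTAM and 1664, 1463 and 1627 CPM in MiaTAM, a change of -0.29 ± 0.05 (adjusted p = 5.4e-04). Both were under the MDM level of 4355 ± 264 CPM and above the 1105 ± 29 CPM of cells alone. Canx, the lectin chaperone calnexin, fell from 1725, 1739 and 1769 to 1488, 1292 and 1519.5 CPM, Hsp90b1, or GRP94, fell by 0.22, Dnajb9, a co-chaperone of BiP, by 0.37 and Xbp1, the transcription factor that IRE1 activates by splicing, by 0.17. Sdf2l1, another BiP co-factor, rose by 0.44.

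Ddit3 measured 109, 104 and 109.6 CPM in BxTAM and 86.9, 67 and 68.6 CPM in MiaTAM, a change of -0.53 ± 0.07 (adjusted p = 2.5e-05). MDM co-cultures had 203 ± 9.09 CPM and cells alone 57.5 ± 0.712 CPM. Of 33 tested genes of the ATF4 branch, which include Ddit3, 12 fell and 2 rose, with a median of -0.08. The length offset gave 9 and 1, and leaving out single libraries gave 6 to 8 that fell, with 6 without BxTAM replicate 1 or 3 and 7 without BxTAM replicate 2 or MiaTAM replicate 3. Atf4 itself fell from 292, 286 and 289.5 to 249, 233 and 233 CPM, a change of -0.28 ± 0.04 (adjusted p = 1.2e-04), Cebpg, its dimer partner, by 0.29 and Sesn2, a sensor of leucine that the pathway induces, by 0.26. Phgdh, the first enzyme of serine synthesis, was one of the 2 that rose, at 0.43 ± 0.09.

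Targets of p53 gave 8 that fell, 3 that rose and 7 not called of 18 tested, with a median of -0.15 (8 and 3 after the length offset, and 7 or 8 that fell when single libraries were left out, with 1 that rose without BxTAM replicate 3). Pmaip1, the cell-death protein NOXA, measured 381, 390.1 and 405 against 303, 246 and 288 CPM, a change of -0.49 ± 0.06 (adjusted p = 2.9e-05). Tp53inp1, a p53-induced nuclear protein, fell by 0.57, Plk2 by 0.28 and Ccng1, the cyclin G1 that p53 induces, by 0.26. Plk3, a kinase related to Plk2, rose by 0.36. Cdkn1a, the cell-cycle inhibitor p21 and the best-known p53 target, was not called, at 263 ± 6.22 and 259 ± 14.6 CPM (adjusted p = 0.789). Some members belong to other lists as well, such as Sesn2.

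Among hypoxia-inducible and glycolytic genes more fell than rose. Of 35 tested genes 9 fell and 2 rose, with a median of 0.01 (8 and 2 after the length offset), and 5 rose without MiaTAM replicate 1. Kdm3a, a histone demethylase that HIF induces, fell from 152, 147 and 155 to 126, 117 and 123 CPM, a change of -0.31 ± 0.04 (adjusted p = 3.6e-05). Ankrd37, another HIF target, fell from 2.74, 2.7 and 2.97 to 1.46, 1.75 and 1.3 CPM, Adm, the vasodilator adrenomedullin, by 0.23 and Pgk1, a glycolytic kinase, by 0.24. The 2 that rose were Ldha, the lactate dehydrogenase A chain, at 0.24 ± 0.04, and Eno1, the enolase, at 0.22 ± 0.04. Slc2a1, the glucose transporter GLUT1, was not called, at 599 ± 32.3 and 626 ± 43 CPM (adjusted p = 0.441).

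Among cell-cycle genes, more of those of DNA replication rose than fell in the fit of all 12 libraries, while those of mitosis changed in both directions. Of 35 tested genes of DNA replication and nucleotide supply 8 rose and 2 fell, with a median of 0.12 (10 and 2 after the length offset). The share called was 28.6%, against 24.2% of all genes tested. Only 2 rose without BxTAM replicate 3, 3 without BxTAM replicate 2, 4 without MiaTAM replicate 2 and 5 without MiaTAM replicate 3. In the fit without BxTAM replicate 3, 2 genes also fell, as many as rose. Rfc5, a subunit of the clamp loader, rose from 16.8, 15.1 and 14.9 to 19.6, 20.4 and 20.2 CPM. Mcm3, a subunit of the replicative helicase, was not called, at 40.9 ± 1.8 and 44.7 ± 1.63 CPM (adjusted p = 0.0711), and both TAM groups were well under the 147 ± 1.57 CPM of cells alone. Of 34 tested genes of G2 and mitosis 6 rose and 5 fell, with a median of -0.03 (6 and 5 after the length offset), and 3 rose without MiaTAM replicate 3 or BxTAM replicate 2. Plk1, the mitotic polo kinase, rose from 36.4, 36.4 and 32.5 to 41, 46.2 and 45.7 CPM and the mitotic kinesin Kif20a by 0.23. Cenpe, a kinesin of the kinetochore, fell from 117, 124 and 129.8 to 94.3, 69.4 and 84.8 CPM and Cenpf, a large kinetochore protein, by 0.47. Mki67, the proliferation antigen Ki-67, fell by 0.22. The implied lengths of Cenpe, Cenpf and Mki67 were 7621, 10069 and 9880 bases, against 2237 bases for Plk1 and 2921 for Kif20a. With the length offset the changes of Cenpe, Cenpf and Mki67 were -0.51, -0.40 and -0.15.

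Glial and trophic genes rose in a few members. Of 14 tested Schwann lineage and glial genes 3 rose and 0 fell (3 and 0 after the length offset), with a median of 0.07. The share called, 21.4%, was not above the 24.2% of all genes tested. Cadm4, the adhesion molecule by which Schwann cells contact axons, rose from 19.4, 17.8 and 16.2 to 27.5, 29.9 and 30.5 CPM, a change of 0.72 ± 0.09 (adjusted p = 1.7e-05). Erbb3, the neuregulin receptor that Schwann cells need for survival and migration, rose from 11.8, 11.3 and 9.73 to 14.5, 14.5 and 16.6 CPM, a change of 0.48 ± 0.11. Dhh, the hedgehog ligand by which Schwann cells pattern the nerve sheath, rose from 16.6, 16.1 and 15.9 to 21.4, 20.9 and 19.9 CPM. Gli1, a transcription factor and target of hedgehog signalling, rose from 1.23, 1.32 and 1.04 to 2.3, 1.69 and 3.58 CPM. Gfap, the glial filament, was not called, at 1.33 ± 0.332 and 1.27 ± 0.313 CPM (adjusted p = 0.85), nor was Ngfr, the low-affinity neurotrophin receptor p75, at 0.751, 1.04 and 0.659 and 2.14, 0.783 and 1.3 CPM (adjusted p = 0.116).

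Of 7 tested neurotrophic factors and receptors 2 rose and 0 fell, also after the length offset. Sort1, the sorting receptor sortilin that pairs with p75, rose by 0.19. Among 29 tested axon guidance genes 7 rose and 4 fell (10 and 3 after the length offset), and 3 rose in each of 5 fits with a single library left out, the exception being MiaTAM replicate 1. Sema7a, a membrane-anchored semaphorin that promotes axon growth, rose by 0.36, while Sema3c, a secreted semaphorin, fell by 0.28, its receptor Nrp2 by 0.15 and Efnb2, a ligand of Eph receptors, by 0.21. Uchl1, a ubiquitin hydrolase abundant in neurons, rose from 98.1, 91 and 95 to 141, 149 and 138 CPM, a change of 0.59 ± 0.05 (adjusted p = 1.0e-07), and was 1 of 3 genes that rose among 13 neuronal and synaptic genes, with 0 that fell (4 and 0 after the length offset). Of 18 tested genes of WNT and Notch signalling 3 rose and 0 fell (4 and 0 after the length offset). The 3 were the ligands Wnt4, from 9.12, 8.91 and 9.67 to 13.4, 13.5 and 14.3 CPM, and Wnt7b, at 0.43 ± 0.07, and the Notch target Hes1, from 1.99, 2.07 and 2.09 to 3.96, 3.62 and 3.8 CPM. The shares called were 23.1% for the neuronal and synaptic list and 16.7% for the WNT and Notch list. Neither was above the 24.2% of all genes tested.

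Genes of growth factor signalling changed in both directions. Fgfr1, a receptor for fibroblast growth factors, rose from 2.84, 2.36 and 2.36 to 3.96, 4.28 and 4.07 CPM, a change of 0.70 ± 0.15 (adjusted p = 0.00241), against 2.25 ± 0.147 CPM with MDM and 1.18 ± 0.186 CPM alone. Its ligand Fgf2 was at 3.43, 4.2 and 3.85 and 3.96, 3.01 and 4.17 CPM and was not called (adjusted p = 0.905, 95% interval of the log2 change from -0.34 to 0.28). Of the 15 tested genes of this axis 2 rose and 3 fell (2 and 2 after the length offset). Pik3ca and Pik3r1, subunits of phosphoinositide 3-kinase, fell by 0.22 and 0.26, and the kinase Akt1 rose by 0.16. Myc was at 73.1, 65 and 68.2 and 67.9, 78.7 and 67.5 CPM (adjusted p = 0.592), and of 9 genes of its network 1 rose and 2 fell (1 and 2 after the length offset). Among 29 tested nucleolar genes of ribosome biogenesis 3 rose and 4 fell (3 and 4 after the length offset), and 1 rose without BxTAM replicate 2. Hbegf, an EGF receptor ligand, fell by 0.15. Of 15 ERK feedback genes 3 rose and 1 fell (3 and 1 after the length offset), and Dusp1, a phosphatase that inactivates MAP kinases, rose by 0.26. Egr1, an immediate early gene, rose by 0.16 and was not called without BxTAM replicate 2. The AP-1 members Junb and Fosl1 changed by 0.25 ± 0.05 and -0.21 ± 0.05.

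The rule for naming also gave the 15 rises and 15 falls of largest size with at least 1 CPM in the higher group. The rises were mostly of low level. Pmepa1 and Cldn4 are described above, and Stac2, an adaptor protein of calcium channels, rose from 4.67, 4.83 and 4.29 to 9.18, 9.46 and 10.4 CPM, a change of 1.07 ± 0.12 (adjusted p = 8.8e-06). The other 12 were Actn3, Fa2h, Cubn, P2ry6, Plxdc1, Prss56, Tspan18, P2rx3, Gli1, Lect2, Iglon5 and Msi1, with means under 3 CPM in both groups. Fa2h, the hydroxylase that makes the hydroxylated sphingolipids of myelin, had 7, 6 and 8 counts in the BxTAM libraries and 23, 12 and 20 in the MiaTAM libraries. The DESeq2 Wald test called Gli1 and, at these low counts, gave the other 11 no adjusted p. Of the 11, 6 lost their call when at least 1 of the single libraries was left out, and Cubn and P2rx3 lost their calls in limma. Fa2h, P2ry6, Plxdc1, Prss56, Iglon5 and Msi1 did not reach a mean of 1 CPM over the 12 libraries and were not tested in the alternative with that filter.

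Among the falls, Cep290, a protein of the ciliary transition zone, measured 34.6, 35.8 and 39.5 CPM in BxTAM and 21.2, 14 and 17.7 CPM in MiaTAM, a change of -1.05 ± 0.10 (adjusted p = 2.2e-06). Smc4, a core subunit of condensin, fell from 252, 274 and 288 to 187, 135 and 162 CPM, a change of -0.75 ± 0.09. Sept7, a septin of the cytoskeleton, fell from 132, 167 and 174 to 93.7, 99.1 and 97.9 CPM. The implied length of Cep290 was 9657 bases and that of Smc4 4241 bases, and with the length offset their changes were -0.98 and -0.71. Clec2g, a C-type lectin-like protein, fell from 49, 59.6 and 50.9 to 33, 23.1 and 28.6 CPM, where MDM co-cultures had 26.6 ± 2.56 CPM. Il36g, a cytokine of the IL-1 superfamily, fell from 8.69, 9.84 and 8.24 to 5.74, 6.03 and 4.72 CPM, a change of -0.70 ± 0.12 (adjusted p = 4.6e-04). Idi1 and Ankrd37 are described above. Further falls were those of Klkb1, Hmgn5, Fcgr2b, Dmrt1, Naip6, Taf1a and Mtcp1, with means under 6 CPM in both groups. Klkb1 was not called without BxTAM replicate 3, and Fcgr2b, Naip6 and Taf1a lost their calls in 5, 5 and 2 alternatives. The symbol Mtcp1 stands on 2 genes of the table, so no value is given for it.

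Markers of other cell types were measured in the same libraries. In bulk samples, fewer cells of a type and less RNA per cell cannot be told apart. Of 26 macrophage and myeloid markers 8 passed the filter, 2 rose and 1 fell. The changes of the 8 ran from -0.93 to 0.69, with 6 above 0 and 2 below. After the length offset 4 rose and 1 fell, and Itgax was among those called. Adgre1, C1qa, Cd163, Cd86, Marco, Mrc1 and Tyrobp had 0 counts in all 6 TAM libraries, and C1qb had 0 in BxTAM. The summed level of the 26 genes was 69.4 to 70.1 CPM in BxTAM and 79.3 to 82.7 CPM in MiaTAM. Of these sums Itgax, an integrin chain of myeloid cells, made up 37.6 ± 1.58 and 41.4 ± 1.42 CPM. The same sum was 72.1 to 77.8 CPM in MDM co-cultures and 35.7 to 37.8 CPM in cells alone, to which no macrophages were added. Cd68, a lysosomal protein of macrophages, measured 1.18, 1.04 and 1.26 and 1.93, 2.11 and 1.57 CPM and lost its call in 6 alternatives, and Coro1a, an actin-binding protein of leukocytes, rose from 8.75, 7.82 and 9.18 to 13.7, 14.2 and 13.8 CPM. The sum for 13 lymphocyte markers was 1.38 to 1.87 CPM and 1.84 to 2.42 CPM. It was 525 to 549 and 566 to 610 CPM for 12 fibroblast markers, and 65.5 to 66.8 and 74.2 to 80.4 CPM for 9 endothelial markers, of which Flt1 rose by 0.22. The higher fibroblast sum did not hold gene by gene. Of 6 tested fibroblast markers 2 rose and 2 fell, with a median of -0.12 (2 and 1 after the length offset). Of 4 tested endothelial markers 2 rose and 0 fell (2 and 0 after the length offset). The part of these markers in the results above was not tested, and with rat gene counts alone reads from macrophages of another species cannot be told apart from Schwann cell reads.

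**Figure D5:**
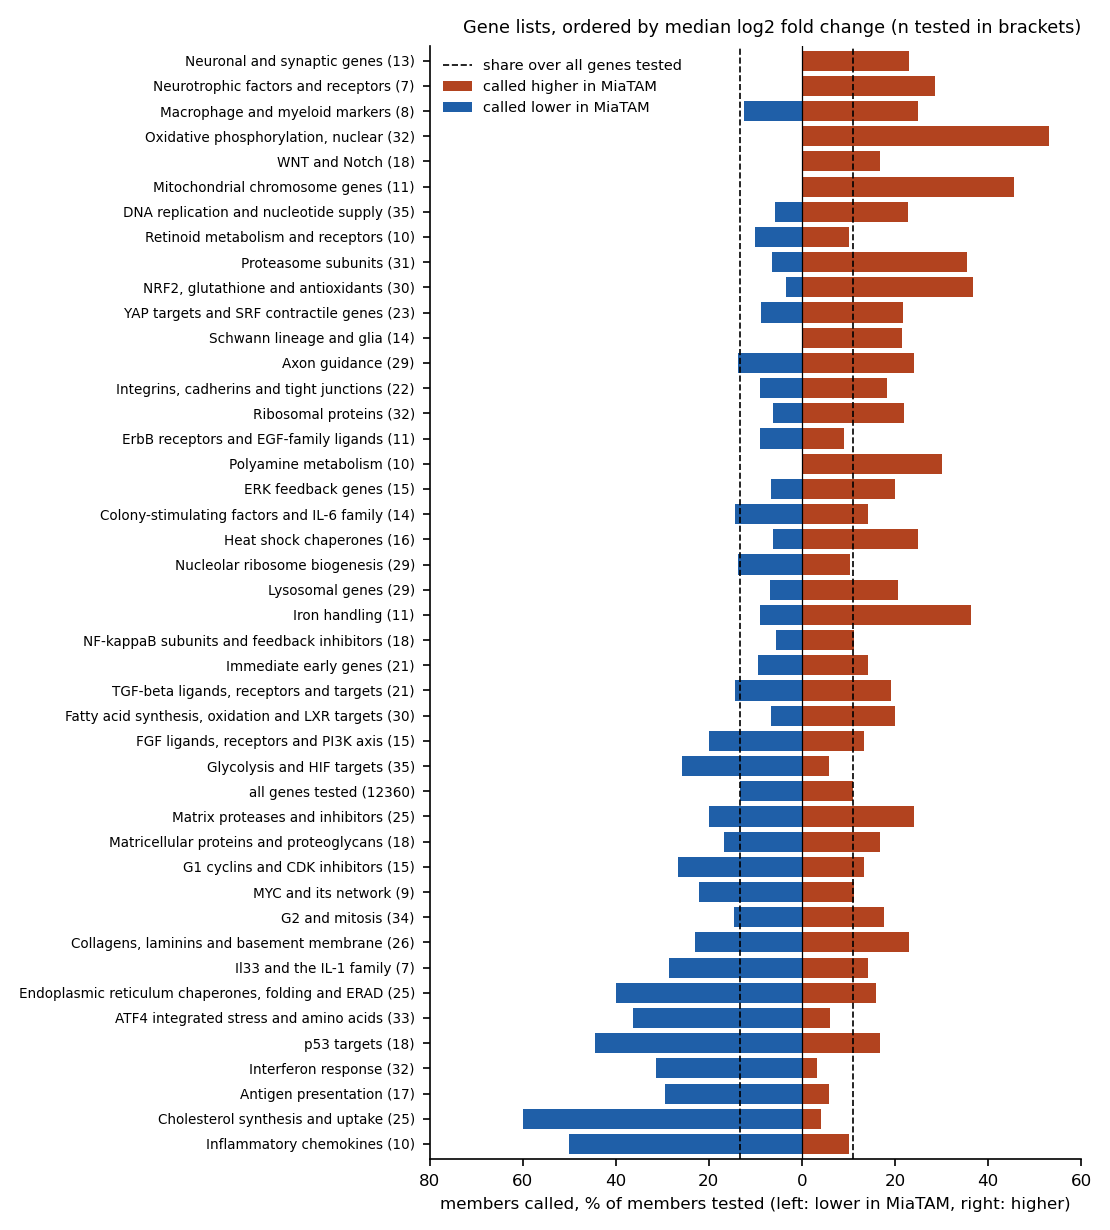
Bars give, for each gene list with at least 7 tested members, the share of tested members called higher in MiaTAM (red, to the right) and lower (blue, to the left), with the number tested in brackets and the lists ordered by their median log2 change. Dashed lines mark the shares over all 12360 genes, 11.0% higher and 13.3% lower. Sterol synthesis has the longest blue bar, 15 of 25 members, and nuclear oxidative phosphorylation the longest red bar, 17 of 32.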

How the data were processed

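Poly(A) RNA of Schwann cells was sequenced in 12 libraries, grouped by the sample labels, with a stranded mRNA kit per the labels' protocols. CASAVA, HISAT2, StringTie 1.3.0 and the build Rnor_6.0 were used, per the submitters' processing notes. The counter, annotation, strand setting and filters are not named, so values of genes with close copies or antisense partners are uncertain. The deposited values are raw counts, per the file headers, and FPKM values that the authors scaled by gene length and library total. Gene lengths were taken from the ratio of both, which differed between libraries by up to 0.0945%.

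Counts were tested with edgeR 4.0.16 under R 4.3.3. Genes were kept by filterByExpr by group, and TMM gave library factors of 0.98 to 1.014. All 12 libraries entered 1 quasi-likelihood fit with a mean per group (common dispersion 0.00218, 8 residual and 11.97 prior degrees of freedom), so that the spread was shared over 4 groups. MiaTAM minus BxTAM was tested with Benjamini-Hochberg adjustment over 12360 genes, threshold 0.05. Standard errors are the log2 change divided by the root of F. Intervals are at 95%. The fit was also run on counts simulated with the common dispersion for every gene and no trend with gene length. Such counts cannot show how well the calls hold in these libraries. Libraries were compared for duplicates and none was found.

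The groups, gene lists and markers were chosen with earlier results of these data known. Named genes were the 15 largest rises and falls among called genes with a usable symbol, non-overlapping libraries and at least 1 CPM in the higher group, up to 4 called members per list by smallest p, and 15 fixed genes. Further list members and those not called were named after their values were seen. Some genes within these rules are not reported here. Symbols of 1038 list entries matched the table directly, 5 through RefSeq names, 23 stood on several genes and 20 were not found. Promoters came from RefSeq (GRCr8), for genes with 1 listed start.

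Alternatives were DESeq2 size factors, upper-quartile factors or library totals in edgeR, the DESeq2 1.42.0 Wald test, limma 3.58.1 with trend on log2(FPKM + 1), a test against 1.2-fold (glmTreat), no filter, a mean of at least 1 CPM, the 6 TAM libraries alone, a replicate block, each TAM library left out, and a length offset chosen after seeing the data (a lowess of each library's deviation on log2 gene length).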

Additional observations from a re-analysis of the deposited data

How the results depend on the processing

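The number of called genes stayed between 2638 (DESeq2 Wald test) and 3027 (upper-quartile factors, 1621 higher and 1406 lower) in 10 of 11 alternatives that kept every TAM library, and the test against 1.2-fold gave 80. Leaving out 1 library gave 1933 to 3113 called genes. Of genes called at 2-fold or more, of which there were 33, the DESeq2 Wald test gave 10, with no adjusted p for 22 of the 33, limma on log2(FPKM + 1) gave 1, the test against 1.2-fold 6, and a mean of at least 1 CPM 16. No count filter gave 49, the length offset 38, and leaving out 1 library 27 to 51. With the replicate number as a block, 2993 genes were called, 31 of them at 2-fold or more, and none of the 159 called genes named here lost its call. Same-numbered libraries of the 2 TAM groups had correlations of -0.112, -0.0252 and 0.0892, and differently numbered ones ran from -0.122 to 0.145. Whether same-numbered libraries shared a batch or culture cannot be read from these values. None of the 159 reversed in any of the 17 alternatives, 125 lost their call in the test against 1.2-fold, 22 in at least 1 fit without a library, 9 in limma and 4 in DESeq2, and 34 lost it in none of those that gave them an adjusted p. Among the named genes that were not called, the log2 change reversed when a library was left out and ran from -0.07 to 0.01 for Cdkn1a, -0.04 to 0.12 for Ctgf, -0.12 to 0.09 for Fgf2, -0.28 to 0.07 for Gfap, -0.02 to 0.10 for Myc and -0.08 to 0.03 for Nfkbia. Except for the missing adjusted p values, the cause was not tested. Depth limits genes of few counts such as Pmepa1, and intervals do not cover differences between cultures.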

Other observations

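Several called genes outside the lists, chosen after their values were seen, differed by more than the spread between replicates. Myo7a, the motor protein myosin VIIa, measured 22.6, 23.8 and 22 CPM in the BxTAM libraries and 40.8, 41.9 and 42.7 CPM in the MiaTAM libraries, a change of 0.88 ± 0.06 (adjusted p = 2.5e-08). Fbln2, the matrix protein fibulin-2, measured 15.6, 16.6 and 15.7 and 26.9, 28.4 and 24.5 CPM (0.73 ± 0.07, adjusted p = 2.1e-06). Far1, which makes the fatty alcohols of ether lipids, measured 948, 968 and 979.6 and 693, 571 and 682 CPM (-0.57 ± 0.06, adjusted p = 2.6e-06).

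Fam210a, a mitochondrial protein, was called higher with a change of 1.66 ± 0.50 (adjusted p = 0.0207), but its MiaTAM libraries measured 83, 11.6 and 80.6 CPM against 17.5, 18.4 and 19.9 CPM in BxTAM, so that MiaTAM replicate 2 lay below all 3 BxTAM libraries. It lost its call in 7 alternatives.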
